A study of Mus musculus with 2 samples.

Results

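A set of 10 miRNAs that mark hepatic stellate cells, myofibroblasts and vascular smooth muscle were followed in mouse liver with and without Hnf4a, and none of those measured differed by as much as 2-fold between the 2 arrays. This threshold was passed by 12% of all features with a value on both arrays, so a count of 0 among so few miRNAs does not set them apart. The 10 miRNAs were chosen by name for these cell types, by a rule that uses no measured value but was written with earlier results of these data known. They were looked up by their miRBase mature accessions among the 610 features of a miRNA array. An accession that filled a whole feature identifier was found for 9 of them: miR-199a-5p, miR-214-3p, miR-143-3p, miR-145a-5p, miR-125b-5p, miR-100-5p, miR-99a-5p, miR-221-3p and miR-222-3p. The accession of miR-199a-3p (MIMAT0000230) stood only inside a comma-joined identifier, together with MIMAT0004667. That feature is not a match and was counted with none of the members, and its values are given apart.

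The RNA came from livers of male mice of 45 days on a mixed 129SV + C57BL/6 background. One array held RNA of Hnf4af/f mice, in which Hnf4a is flanked by recombination sites, and the other held RNA of liver-specific Hnf4a-null mice (Hnf4aΔH). The design text sets out to find hepatic miRNAs that depend on HNF4a, a nuclear receptor that maintains the gene expression of hepatocytes. Each genotype had 1 array, so every value is a single measurement, and whether an array pooled animals, and which Cre line made the null mice, the sources used here do not say. No difference could be set against a spread between animals and no test was made.

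Hepatic stellate cells are the pericytes of the liver sinusoid. In the healthy liver they store vitamin A, and on injury they turn into contractile, collagen-producing myofibroblasts. A miRNA acts by pairing bases 2 to 8 of its 5′ end, the seed, with sites in messenger RNAs, whose translation and stability it lowers. The miRNAs followed here are abundant in mesenchymal cells, but several of them, among them miR-125b, miR-99a, miR-100 and miR-221, are also made in other cell types. In RNA of whole liver, fewer cells of a type and less of a miRNA per cell cannot be told apart.

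RefSeq's mouse miRNA table (GRCm38.p6) was searched by name with the entries of a chromosome left out. The mature sequences of 8 of the 10 miRNAs were found, and a name not found may still be in the full table. The 8 sequences are shown because they set which of the features below read the same seed. The seed is in capitals.
miR-199a-5p: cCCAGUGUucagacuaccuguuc
miR-199a-3p: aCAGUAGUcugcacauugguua
miR-214-3p: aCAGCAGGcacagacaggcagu
miR-125b-5p: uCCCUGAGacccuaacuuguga
miR-100-5p: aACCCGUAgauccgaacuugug
miR-99a-5p: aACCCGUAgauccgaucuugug
miR-221-3p: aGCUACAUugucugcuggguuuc
miR-222-3p: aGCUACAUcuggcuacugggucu

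These 8 sequences carry 6 seeds, since miR-99a-5p shares its seed with miR-100-5p, and miR-221-3p shares its seed with miR-222-3p. miR-99a-5p and miR-100-5p differ at 1 of 22 bases, U16A, counted from the 5′ end with the base of miR-99a-5p first. miR-221-3p and miR-222-3p are the same at 11 of 23 positions. The sequence of miR-199a-3p is identical over all 22 bases to that listed for miR-199b-3p, which comes from another gene. The seed of miR-125b-5p is carried by 5 mature miRNAs among the entries searched, miR-125a-5p and miR-351-5p among them.

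All 9 miRNAs had a value on both arrays, against 258 of the 610 features (42.3%). Differences are given as log2(intensity + 1) of the liver-null array minus that of the control, over these 258 shared features. The 9 differences ran from -0.57 to 0.21 with a median of -0.05, while those of all shared features ran from -3.16 to 2.46 with a median of -0.06. Counting from a 2-fold change upward, 0 of the 9 miRNAs were higher and 0 were lower in the Hnf4aΔH liver. The same threshold was passed upward by 6.59% and downward by 5.43% of all shared features, 12% in all. Of the brighter 129 shared features, those at or above the median mean level, 18.6% passed it, and 8 of the 9 miRNAs were among these brighter features. The median size of the difference, leaving its sign aside, was 0.15 for the 9 miRNAs and 0.35 for all shared features. It was 0.30 for the brightest quartile of shared features, which held 6 of the 9. The gap depended on the processing: with 16 added to the intensity in place of 1, the sizes were 0.07 and 0.11. Summed over the 9 features, the intensity was 459 units in the Hnf4af/f liver against 442 units in the Hnf4aΔH liver, which is 1.59% and 1.56% of the arrays' totals. Each total is over all features with a value on that array, 299 for Hnf4af/f and 340 for Hnf4aΔH, and not over the shared features.

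**Figure D1:**
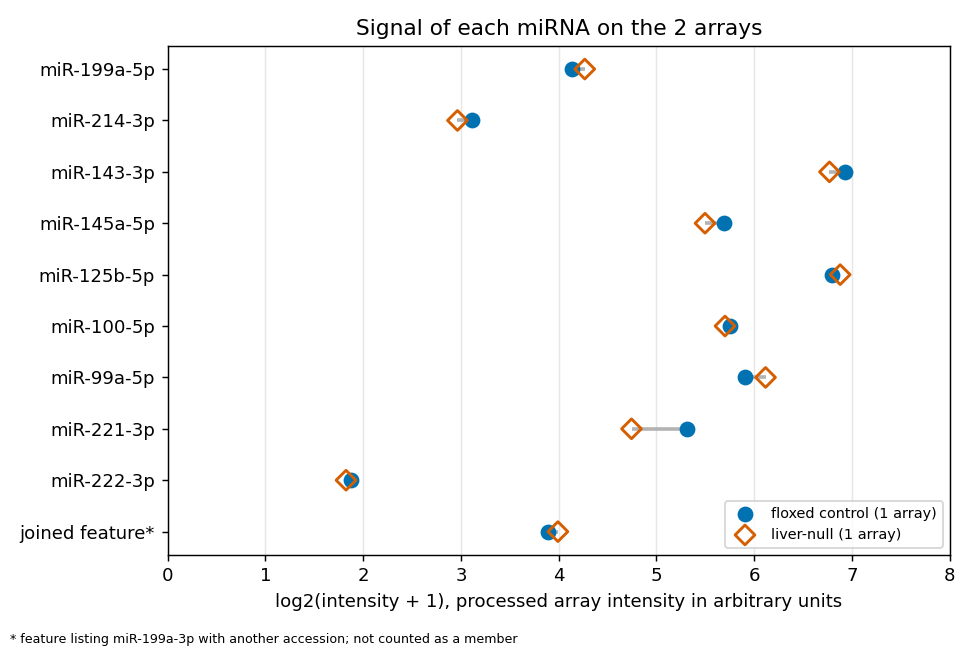
Log2(intensity + 1) of each miRNA (horizontal axis, arbitrary units) on the control array (filled circles) and the liver-null array (open diamonds), 1 array per genotype, with a grey line joining each pair. The symbols lie at most 0.21 apart for 8 of the 9 miRNAs and for the joined feature, and farther apart for miR-221-3p, at 5.31 and 4.74. Distances between miRNAs reflect probes as well as amounts and are not compared.

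**Figure D2:**
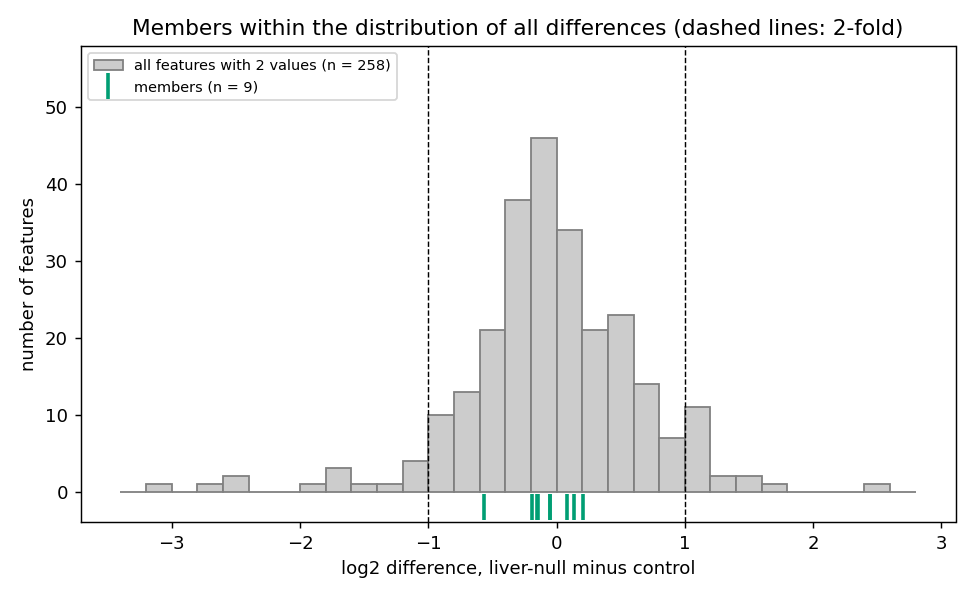
Number of features (vertical axis) by log2 difference, liver-null minus control (horizontal axis), for all 258 features with a value on both arrays (grey bars), with a green tick below the bars for each of the 9 miRNAs. All 9 ticks lie between the dashed 2-fold lines, from -0.57 to 0.21.

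The arrays' own scaling bears on the sign of such small differences. Over the shared features, the Hnf4aΔH array's median log2 level exceeded the other's by 0.15, and each difference is also given relative to this shift. The shift is a difference of 2 medians. The median of the single differences was -0.06, with 142 of 258 below 0. Taking off the shift left 167 of 258 below 0. Values relative to it are thus not centred on 0 and are no corrected decreases. Relative to it, the 9 differences ran from -0.72 to 0.06 with a median of -0.20, beside a median of -0.21 for all shared features.

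miR-199a and miR-214 are made from one RNA, the Dnm3os transcript, which lies within the Dnm3 gene and is known to be induced in fibroblasts and activated stellate cells. In GRCm38.p6 Dnm3os spans chr1:162217623-162225550, with the hairpin of miR-199a-2 at chr1:162217814-162217923 and that of miR-214 at chr1:162223368-162223477. A further hairpin, that of miR-199a-1, lies within Dnm2 at chr9:21496495-21496564 and gives the same mature strands. Neither strand measured from the Dnm3os hairpins stood apart between the livers.

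miR-199a-5p (MIMAT0000229) read 16.5 units in the Hnf4af/f liver and 18.2 units in the Hnf4aΔH liver. The signal without Hnf4a was thus 10.4% above that of the control, a log2 difference of 0.14, which turned to -0.02 relative to the median shift and was -0.09 with quantile normalization and -0.10 with loess centring. For miR-214-3p (MIMAT0000661) the signal was 7.64 units with Hnf4a and 6.80 units without it. On the log2 scale this is a difference of -0.15, or -0.30 after taking off the shift. The difference was below 0 under all 7 settings examined. A change of pseudocount cannot turn a sign, so only the scalings could have done so. The sign of the difference thus varied with the scaling for miR-199a-5p but not for miR-214-3p, and the 2 differences lay 0.28 apart. The joined feature that lists miR-199a-3p read 13.9 units in the Hnf4af/f liver and 14.9 units in the Hnf4aΔH liver, a log2 difference of 0.10, or -0.05 with the shift taken off. This feature, which lists the strand opposite miR-199a-5p beside a further identifier, had the same sign as miR-199a-5p under each of the 7 settings. Their mean log2 levels were 3.94 and 4.20, so a scaling moves both by similar amounts. The shared sign therefore adds little to the main values.

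miR-143 and miR-145a are processed from one precursor transcript and are the characteristic miRNAs of smooth muscle, where they favour the contractile state and are switched on by serum response factor and myocardin. In the liver they are carried by vessel walls and by stellate cells. Both were slightly dimmer on the Hnf4aΔH array. The signal of miR-143-3p (MIMAT0000247) was 120.4 units in the Hnf4af/f liver and 108 units in the Hnf4aΔH liver, 10.2% lower, with a log2 difference of -0.15. That of miR-145a-5p (MIMAT0000157) was 50.6 units against 44.2 units, 12.7% lower, with a log2 difference of -0.19. These 2 miRNAs lay 0.04 apart in their differences. Relative to the median shift they stood at -0.31 and -0.34. Quantile normalization put miR-143-3p at 0 and miR-145a-5p at -0.22, and the other settings left both below 0. Among all shared features, 76.7% differed by more than miR-143-3p and 69.4% by more than miR-145a-5p, in either direction.

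miR-125b, miR-100 and miR-99a come from a pair of paralogous loci that also hold let-7 genes. miR-125b is the mammalian counterpart of the worm miRNA lin-4, and miR-99a and miR-100 are known to lower mTOR. In GRCm38.p6 the hairpin of miR-100 (chr9:41531425-41531504) and that of miR-125b-1 (chr9:41581926-41582002) lie within the long non-coding gene Mir100hg. The hairpin of miR-99a (chr16:77598936-77599000) and that of miR-125b-2 (chr16:77646273-77646343) form the other locus. Mature miR-125b-5p is the same from both, so its feature does not tell them apart.

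miR-125b-5p (MIMAT0000136) read 110.5 units with Hnf4a and 117 units without it. Its log2 difference of 0.08 turned to -0.07 relative to the median shift and to -0.02 with loess centring, and was 0.28 with quantile normalization. miR-100-5p (MIMAT0000655) read 52.8 units in the Hnf4af/f liver and 51.0 units in the Hnf4aΔH liver, a log2 difference of -0.05. It was -0.20 with the shift taken off and -0.19 with loess centring, and it turned to 0.09 with quantile normalization. For both miRNAs the scaling thus moved the difference by more than its own size. In the main values 87.6% of all shared features differed by more than miR-125b-5p and 94.2% by more than miR-100-5p.

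The feature of miR-99a-5p (MIMAT0000131) gave 59.0 units in the Hnf4af/f liver and 68.4 units in the Hnf4aΔH liver, 15.9% higher. Its log2 difference of 0.21 was the highest of the 9. The difference was above 0 under all 7 settings, of which only the scalings could turn the sign, at its lowest 0.06 with median centring. miR-99a-5p and miR-100-5p, which differ at a single base, lay 0.26 apart in their differences, and 0.21 to 0.28 apart across the settings. How far each probe also binds the other sequence was not tested.

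miR-221 and miR-222 are made from one precursor on the X chromosome, lower the cell-cycle inhibitor p27 (Cdkn1b), and are known to increase when stellate cells become activated. Their hairpins lie at chrX:19146294-19146388 and chrX:19146893-19146971 in GRCm38.p6, 504 bases apart. Of the 9 miRNAs, miR-221-3p (MIMAT0000669) had the difference farthest from 0. The Hnf4af/f liver gave 38.8 units and the Hnf4aΔH liver 25.8 units, 33.4% lower, which is -0.57 on the log2 scale, or -0.72 with the shift taken off. It was below 0 under all 7 settings, of which only the scalings could turn the sign. The values ran from -0.76 with loess centring to -0.39 with a pseudocount of 16.

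The size of this difference was not unusual for the arrays. Of all shared features, 31.0% differed by more than miR-221-3p in either direction, and 39 had a difference lower than its own. It lay close to a 1.5-fold threshold, which it did not reach in the main values. That threshold was passed upward by 15.1% and downward by 14.7% of all shared features, 29.8% in all, and by 0 of the 9 miRNAs. With median centring, quantile normalization, loess centring or no pseudocount, miR-221-3p passed it and was the 1 member to do so. The share of all shared features that passed it under these settings was not counted, so this has no background to be set against.

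miR-222-3p (MIMAT0000670), which carries the same seed, read 2.66 units with Hnf4a and 2.54 units without it. The log2 difference of -0.05 became -0.20 with the shift taken off, and it turned to 0.05 with quantile normalization and 0.09 with loess centring. The 2 miRNAs of this precursor thus lay 0.52 apart in their differences, and 0.38 to 0.84 apart across the settings. miR-222-3p was the dimmest of the 9 features and the 1 member below the median mean level of the shared features. The lowest values given were 1.45 units on the Hnf4af/f array and 1.02 units on the other, and log2(intensity + 1) understates changes at this level.

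Features of different brightness scattered to different extents, so each miRNA was also set beside the features of its own quartile of mean log2 level. The brightest quartile held 6 of the 9 miRNAs, the next held miR-199a-5p and miR-214-3p, and the second dimmest held miR-222-3p. In the brightest quartile the 25th and 75th percentiles of the difference were -0.30 and 0.28, and 5 of the 6 miRNAs lay between them, with miR-221-3p below. In the next quartile the percentiles were -0.30 and 0.78, and in the second dimmest they were -0.35 and 0.31. The miRNAs of these quartiles all lay inside. In total 8 of the 9 lay in the middle range of their own quartile, a range that by construction holds as many features as lie outside it. Members that share a precursor or a seed are not independent of each other, so this count is a description.

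**Figure D3:**
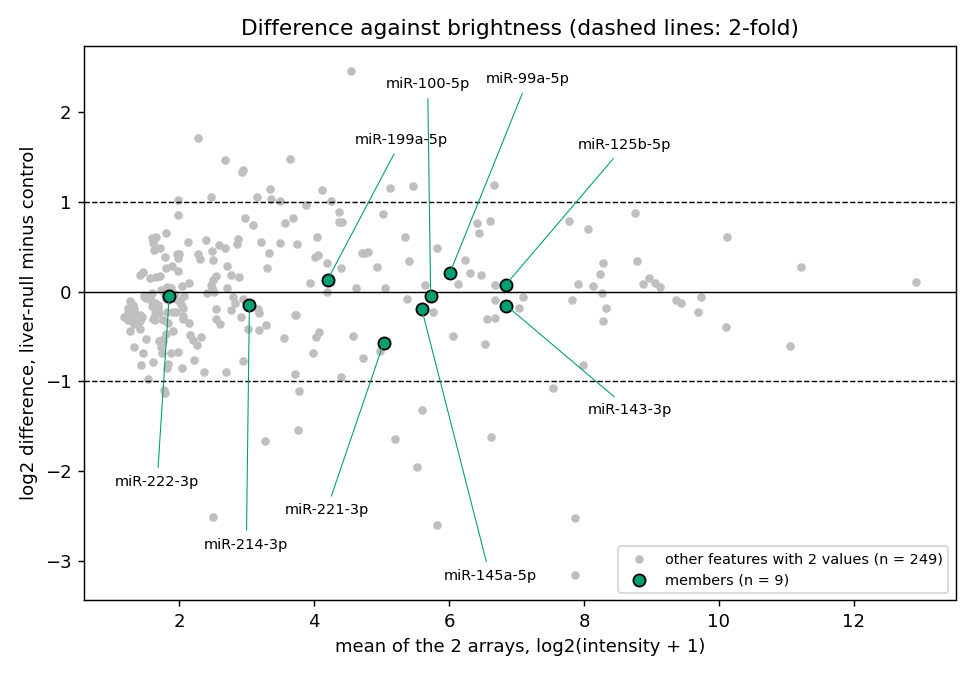
Log2 difference, liver-null minus control (vertical axis), against the mean log2(intensity + 1) of the 2 arrays (horizontal axis) for the 9 miRNAs (green, named) and the other 249 features with a value on both arrays (grey). The green points lie inside the dashed 2-fold lines, with miR-221-3p lowest at -0.57, and none (0) of them is in the dimmest quartile.

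**Figure D4:**
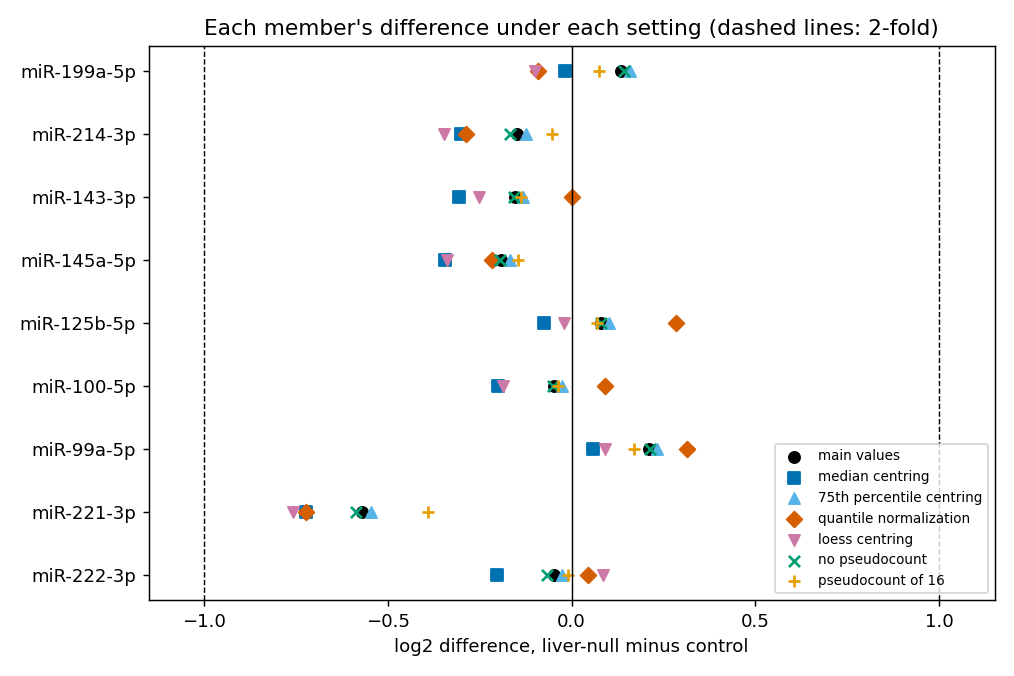
Log2 difference of each miRNA, liver-null minus control (horizontal axis), under the main values and 6 alternative settings (symbols). All values lie between -0.76 and 0.31, inside the dashed 2-fold lines. miR-214-3p, miR-145a-5p, miR-99a-5p and miR-221-3p keep their sign under every setting shown, of which those that change only the pseudocount cannot turn a sign.

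Markers of hepatocytes, endothelium, leukocytes, red cells and bile duct had been listed by miRNA name to set beside these values, together with the opposite strands and relatives of the members. The tables used here do not pair other accessions with names, so those lists were not applied and the labelled tissue was not checked against its markers. The Hnf4a transcript was not measured by these features, and the loss of the gene was not checked.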

How the data were processed

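Liver total RNA was labelled with the red dye Hy5 and a miRCURY LNA kit, per the labels' protocols (the dye field reads Cy5), in 1 channel per array. The authors deposited 1 processed intensity for each feature and array, not log-transformed. The sources used here do not state their background correction, filter or normalization. Missing values were not replaced. Members were matched by exact accession and named as the rule for choosing them names them. The members and lists were chosen with earlier results of these data known. All 10 members were to be described whatever their values, with relatives and markers named where a table paired name and accession. None (0) was paired, so those lists were not used. Intensities became log2(intensity + 1), a scale that understates changes of dim features. The difference was liver-null minus control. A 2-fold change means a log2 difference of at least 1. The alternatives were centring on the median or the 75th percentile, quantile normalization, loess centring (span 0.4), no pseudocount and a pseudocount of 16, thresholds of 1.5-fold and 4-fold, and the brighter members alone. The code was run on simulated data with known answers. The changes put in were well past 2-fold, and their recovery was required in the main setting only. This run thus does not bear on small differences or on the alternatives. With 1 array per genotype no test or interval was possible, and the number of arrays limits the precision. Python 3.11.15, numpy 2.4.6, pandas 2.3.3, statsmodels 0.14.6 and matplotlib 3.10.9 were used.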

Additional observations from a re-analysis of the deposited data

How the results depend on the processing

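No paired analysis was possible because there is a single array of either genotype, which also left no replicate to omit. The counts of miRNAs at least 2-fold higher and 2-fold lower were 0 in the main values and under all 6 scalings and pseudocounts. They were also 0 at 1.5-fold in the main values. At 4-fold and among the 8 brighter members alone the counts could only be 0, given the count of 0 at 2-fold. The median difference of the 9 miRNAs was -0.05. It moved to -0.20 with median centring and to -0.19 with loess centring, where the medians of all shared features were -0.21 and -0.00. It stayed within 0.1 of the main value with the other 4 settings and, in checks added after seeing the data, at -0.10 without miR-222-3p and -0.05 without miR-221-3p. Of 54 single values recomputed, 24 moved by more than 0.1. The sign stayed the same throughout for 4 of the 9 miRNAs, and only the scalings, not the pseudocounts, could have turned it. Combining the 1.5-fold threshold with each setting was also added after seeing the data: miR-221-3p alone passed it, under 4 of the 6 alternatives. The share of all shared features that passed it under those alternatives was not counted.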
